A study of Mus musculus with 6 samples.

Results

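The transcripts of 10 genes that sense and join DNA double-strand breaks were followed in mouse primary cortical neurons with and without NMDA, a selective agonist of the NMDA class of glutamate receptors. The genes were chosen by name, as rows whose symbol equals Xrcc4, Xrcc5, Xrcc6, Lig4, Prkdc, Parp1, Atm, Nbn, Rad50 or Trp53bp1. All 10 were found among 38293 rows, 1 row each, and all 10 passed the filter on low counts, as did 14642 rows in all. Both groups were wild-type Swiss-Webster cultures prepared at embryonic day 16 and grown for 13 days in vitro. The control group had 3 untreated libraries. The NMDA group had 3 libraries from cultures given 50 µM NMDA for 10 minutes and then 50 minutes of drug-free recovery. The growth protocol shared by all samples also describes etoposide, a topoisomerase II poison that makes double-strand breaks, but none of the 6 libraries carries it as its treatment. The labels name no litter or culture day, and the extraction text counts 2 biological replicates where 3 libraries are listed per group. The p-values therefore measure only the spread between these libraries, which may in part be technical. Triplets of values are given in the order of replicates 1, 2 and 3. Such cultures hold mixed cell types, and in bulk RNA fewer cells of a type and less RNA per cell cannot be told apart.

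A double-strand break severs both strands of the chromosome. In end joining, the route open to cells that no longer divide, the Ku heterodimer (Xrcc5 and Xrcc6) binds the free ends and recruits the kinase subunit Prkdc, and the Xrcc4-Lig4 complex seals them. The Mre11a, Rad50 and Nbn complex senses breaks and activates the kinase Atm, which marks the surrounding chromatin, where Trp53bp1 then gathers and favours end joining over resection. Parp1 binds single- and double-strand breaks and builds poly(ADP-ribose) chains there. Neuronal stimulation and topoisomerase II are known sources of such breaks in neurons. By its title the series is about supercoiling, cohesin and RNA polymerase II. The comparison here is of the level of the repair transcripts with and without NMDA.

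No break repair transcript passed the test in the comparison of the groups, while activity genes rose strongly. Of the 10 members, 0 passed an adjusted p of 0.05 in edgeR, beside 0.430% of all tested genes in either direction. At an unadjusted p under 0.05 the members also numbered 0, while of all 14642 tested genes 760 were higher and 1240 lower. DESeq2 and limma-voom also called 0 of the 10. Log2 fold changes ran from -0.32 for Atm to 0.14 for Xrcc5, with 5 above and 5 below 0, and their median was -0.03, beside -0.01 over all tested genes. The 95% intervals of all 10 included 0 and lay within 2-fold either way, and 9 of the 10 lay within 1.5-fold either way, the exception being Atm with a lower bound of -0.65. In the same libraries the activity genes Fos, Npas4, Egr1 and Nr4a1 all passed, Fos with control libraries at 3.30 ± 0.573 CPM and NMDA libraries at 116 ± 24.5 CPM (CPM, counts scaled by library size and TMM factor; mean ± SD, n = 3).

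Libraries with the same replicate number deviated together in both groups, so a second fit compared NMDA with control within pairs. There 1 of 10 members passed, Atm, which fell, against 14.0% of all tested genes in either direction and 8.35% that were lower. A count of 1 in 10 is near that background. In that fit 7 of the 10 intervals included 0, and all 10 lay within 1.5-fold either way. The 3 whose interval did not include 0 were Atm, Prkdc and Trp53bp1, all lower. Such an interval means an unadjusted p under 0.05, which at least 14.0% of all tested genes had in this fit. The exact share was not computed, so the 3 of 10 are not read as more than background.

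**Figure D1:**
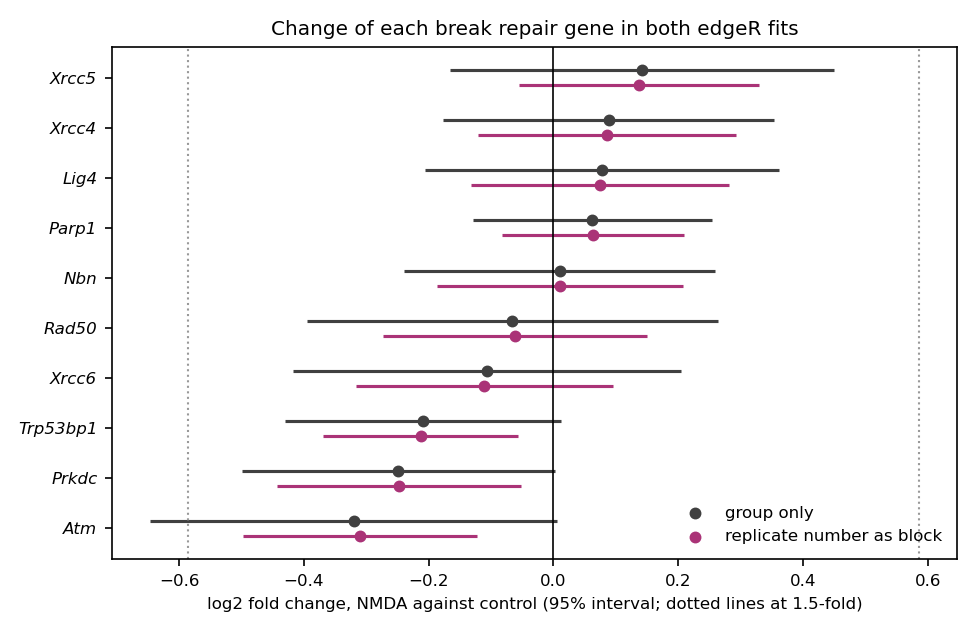
Log2 fold change (NMDA against control, horizontal axis) of each member with its 95% interval, without the replicate block (dark) and with it (purple); dotted lines mark 1.5-fold. All 10 dark intervals include 0, and Atm, Prkdc and Trp53bp1 have purple intervals wholly below it.

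Libraries held 15417234 to 19183999 counted reads, and the 10 members took 5811 to 7923 of them. Mitochondrially encoded transcripts were 9.77% to 17.6% of counts in control and 11.2% to 15.3% in NMDA libraries. Defining neuron markers were present, with summed levels of 1201 to 1351 CPM over 8 excitatory markers in control and 1026 to 1225 CPM in NMDA libraries. The 10 astrocyte markers summed to 2683 to 3455 CPM (control) and 2880 to 4421 CPM (NMDA), and within pairs 8 of the 10 rose. The 8 inhibitory neuron markers summed to 545.6 to 584.5 CPM (control) and 597 to 641 CPM (NMDA), with the groups apart, and within pairs 1 of them rose, Sst. The 8 endothelial and mural markers summed to 104 to 150 CPM (control) and 136 to 268 CPM (NMDA), and within pairs the contractile genes Acta2 (0.56 ± 0.12, adjusted p = 0.0092) and Tagln (0.67 ± 0.08, adjusted p = 1.2e-05) rose. Among excitatory markers Camk2a fell (-0.39 ± 0.08, adjusted p = 0.0022) and Neurod2 rose (0.27 ± 0.08, adjusted p = 0.030) within pairs. The 8 microglia markers summed to at most 5.38 CPM in any library. The 10 markers of dividing cells summed to 382 to 516 CPM (control) and 397 to 529 CPM (NMDA), and none of them passed in either fit. The 8 oligodendrocyte lineage markers summed to 1030, 620 and 527 CPM in control and to 1007, 646 and 671 CPM in NMDA libraries. Within pairs 1 of them fell, Mog (-0.65 ± 0.21, adjusted p = 0.040), at 34 to 109 reads per library. The part of these shifts in the values below was not tested.

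The Ku subunits are the first proteins on a broken end. Xrcc5, which encodes the larger subunit (ENSMUSG00000026187, chromosome 1, 72307421 to 72394952, plus strand, GRCm38), stood at 18.1, 20.8 and 22.4 CPM in control and at 18.9, 23.1 and 25.5 CPM in NMDA libraries. The NMDA library was the higher in each pair, but the groups overlapped, and the log2 fold change was 0.14 ± 0.14 (SE, adjusted p = 0.68). With 1 library left out it ranged from 0.06 (without NMDA replicate 3) to 0.26 (without NMDA replicate 1). Xrcc6, which encodes the smaller subunit (ENSMUSG00000022471, chromosome 15, 81987835 to 82040085, plus strand), stood at 16.2, 18.9 and 19.6 CPM in control and at 14.6, 16.8 and 19.4 CPM in NMDA libraries. It was the lower in each pair with overlapping groups, at -0.11 ± 0.14 (adjusted p = 0.77). Without NMDA replicate 3 the log2 value of Xrcc6 was -0.20, and without NMDA replicate 1 it was -0.00085, so its size depends on the library left out.

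The ratio of the partners inside 1 library needs no scaling between libraries. Xrcc6 reads per Xrcc5 read numbered 0.895, 0.909 and 0.873 in control and 0.770, 0.724 and 0.762 in NMDA libraries. All 3 NMDA ratios were below all 3 control ratios, a log2 difference of -0.25. The two-sided exact permutation p was 0.1, the smallest that 3 against 3 libraries can give, and 0.5 after Benjamini-Hochberg adjustment over the 5 ratios computed. Counting error alone gives each log2 ratio a standard error of 0.10 to 0.13. The SD between replicates was smaller than that, 0.03 in control and 0.05 in NMDA libraries. Exons of Xrcc6 share 344 bases with Desi1 on the opposite strand. Since the strand setting of the counting is not given in the sources used here, reads there may be shared. Desi1 itself was at 0.09 ± 0.08 (adjusted p = 0.64).

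The Ku promoters are shown because the genes of 1 dimer differ there in base composition. Capitals mark matches on either strand. The CCAAT box was searched as CCAAT. The GC box was searched as GGGCGG. The core of an NRF1 site was searched as GCATGCGC, which reads GCGCATGC on the other strand. No match in these windows overlaps another. The windows run from 250 bases before to 50 bases after the RefSeq start (GRCm38.p6) and are read 5′ to 3′ in the direction of the gene.
Xrcc5 (chr1:72307171-72307470, plus strand): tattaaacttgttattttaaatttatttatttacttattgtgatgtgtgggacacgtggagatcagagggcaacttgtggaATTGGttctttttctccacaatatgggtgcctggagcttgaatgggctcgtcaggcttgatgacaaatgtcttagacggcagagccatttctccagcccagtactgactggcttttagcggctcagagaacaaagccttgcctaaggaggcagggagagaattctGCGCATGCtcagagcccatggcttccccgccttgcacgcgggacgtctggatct
Xrcc6 (chr15:82016119-82016418, plus strand): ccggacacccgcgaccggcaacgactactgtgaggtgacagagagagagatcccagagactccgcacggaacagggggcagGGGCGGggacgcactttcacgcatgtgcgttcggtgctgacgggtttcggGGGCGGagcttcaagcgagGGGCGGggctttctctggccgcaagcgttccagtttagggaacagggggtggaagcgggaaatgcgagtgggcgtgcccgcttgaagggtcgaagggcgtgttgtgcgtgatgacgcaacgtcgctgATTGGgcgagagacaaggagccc
The RefSeq start of Xrcc6 lies inside the GENCODE span of the gene given above, downstream of its first base. The Xrcc5 window has 48.0% GC and 9 CpG, 1 CCAAT match and 1 NRF1 match. The Xrcc6 window has 64.3% GC and 30 CpG, 3 GC box matches and 1 CCAAT match. Over the 32851 promoters of the RefSeq table the medians are 52.7% GC and 7 CpG. A CCAAT match occurs in 37.4%, a GC box match in 35.7% and an NRF1 match in 2.71% of them.

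Prkdc encodes the catalytic subunit of the DNA-dependent protein kinase, which Ku holds on the end (ENSMUSG00000022672, chromosome 16, 15637866 to 15842235, plus strand). It stood at 24.6, 21.6 and 21.9 CPM in control and at 20.4, 19.4 and 17.6 CPM in NMDA libraries. All 3 NMDA libraries lay below all 3 controls. Prkdc was the 1 member of 10 whose groups did not overlap, while over all tested genes 19.3% had groups apart in one direction or the other. The log2 fold change was -0.25 ± 0.11 (adjusted p = 0.37), and within pairs it was -0.25 ± 0.09 (adjusted p = 0.083), with log2 differences of -0.27, -0.16 and -0.31 in pairs 1, 2 and 3. Prkdc reads per Xrcc5 read numbered 1.36, 1.04 and 0.977 in control and 1.08, 0.838 and 0.690 in NMDA libraries. The ratio was lower in each pair, with log2 differences of -0.33, -0.31 and -0.50, but overlapped between groups. The log2 difference between groups was -0.38 (exact permutation p = 0.3, adjusted p = 0.5, in a test that did not use the pairs). With 1 library left out it ranged from -0.55 (without NMDA replicate 1) to -0.23 (without NMDA replicate 3), and was -0.24 without control replicate 1.

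**Figure D2:**
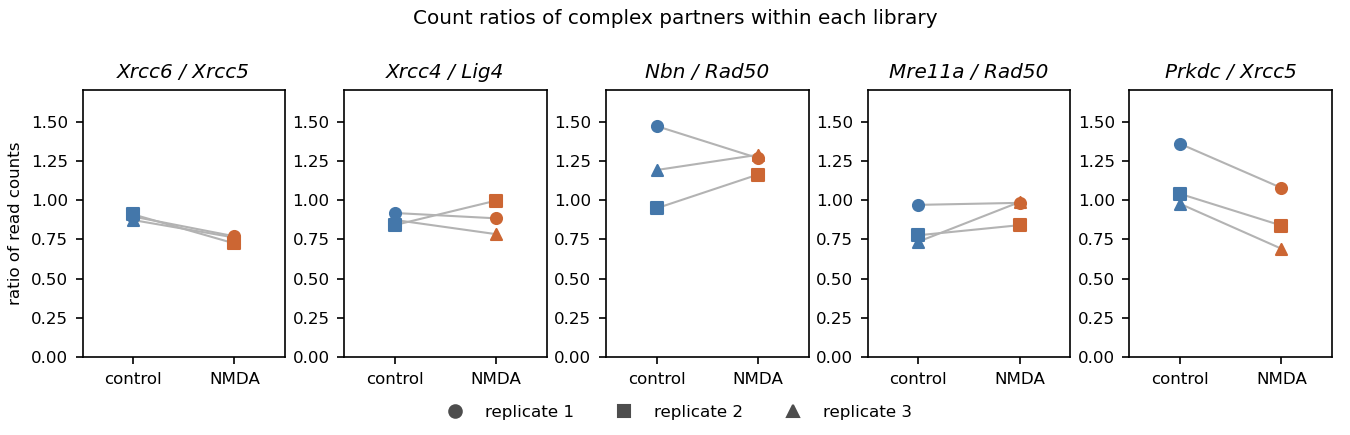
Ratio of read counts of partners of 1 complex (vertical axis, from 0) in each library, by group; symbols give the replicate number and lines join equal numbers. The Xrcc6 to Xrcc5 ratio is 0.873 to 0.909 in control and 0.724 to 0.770 in NMDA libraries, and the groups overlap in the other 4 ratios.

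Neither gene of the ligation complex passed. Xrcc4, the scaffold that stabilises the ligase (ENSMUSG00000021615, chromosome 13, 89774027 to 90089608, minus strand), stood at 15.8, 17.1 and 16.8 CPM in control and at 15.8, 19.2 and 17.7 CPM in NMDA libraries. Lig4, the ligase itself (ENSMUSG00000049717, chromosome 8, 9969049 to 9977686, minus strand), stood at 17.2, 20.3 and 19.2 CPM in control and at 17.9, 19.2 and 22.6 CPM in NMDA libraries. The groups overlapped for both genes. The log2 fold changes were 0.09 ± 0.12 for Xrcc4 (95% interval -0.18 to 0.35, adjusted p = 0.78) and 0.08 ± 0.13 for Lig4 (-0.21 to 0.36, adjusted p = 0.83). With 1 library left out, Xrcc4 ranged from 0.02 (without NMDA replicate 2) to 0.17 (without NMDA replicate 1), and Lig4 from -0.0086 (without NMDA replicate 3) to 0.16 (without NMDA replicate 1). The Xrcc4 to Lig4 ratio was 0.841 to 0.918 in control and 0.783 to 0.997 in NMDA libraries (log2 difference 0.01, exact permutation p = 0.9, adjusted p = 0.9).

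Parp1, the abundant poly(ADP-ribose) polymerase, had the narrowest interval of the 10. It (ENSMUSG00000026496) lies on chromosome 1 from 180568924 to 180601254 (plus strand) and stood at 78.8, 89.2 and 90.2 CPM in control and at 85.6, 92.7 and 91.3 CPM in NMDA libraries. The NMDA library was higher in each pair, by 0.12, 0.05 and 0.02 on the log2 scale, and the groups overlapped. The log2 fold change was 0.06 ± 0.09, with a 95% interval from -0.13 to 0.25 (adjusted p = 0.79), which corresponds to 0.914- to 1.19-fold. It was 0.0023 without control replicate 1 and 0.11 without NMDA replicate 1.

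The members of the sensor complex did not pass either. Nbn, its regulatory subunit that binds Atm (ENSMUSG00000028224, chromosome 4, 15957925 to 15992589, plus strand), stood at 21.1, 19.3 and 22.3 CPM in control and at 19.7, 20.9 and 22.6 CPM in NMDA libraries, a log2 fold change of 0.01 ± 0.11 (adjusted p = 0.98). Rad50, the ATPase that tethers the ends (ENSMUSG00000020380, chromosome 11, 53649519 to 53707319, minus strand), stood at 14.4, 20.4 and 18.7 CPM in control and at 15.5, 18.0 and 17.5 CPM in NMDA libraries (-0.07 ± 0.15, adjusted p = 0.88). With 1 library left out, Nbn ranged from -0.044 to 0.067 and Rad50 from -0.20 to 0.041, in both cases across 0. Rad50 was lowest in replicate 1 of both groups, and the groups overlapped for both genes. Mre11a, the nuclease of the complex, was at 14.5 ± 1.12 CPM (control) and 15.9 ± 1.25 CPM (NMDA), a log2 fold change of 0.13 ± 0.12 (adjusted p = 0.67). Nbn reads per Rad50 read ranged from 0.948 to 1.47 in control and from 1.16 to 1.29 in NMDA libraries (log2 difference 0.06, exact permutation p = 0.8, adjusted p = 0.9). Mre11a reads per Rad50 read ranged from 0.735 to 0.970 and from 0.841 to 0.988 (log2 difference 0.19, exact permutation p = 0.2, adjusted p = 0.5). This last difference was 0.31 without control replicate 1 and 0.11 without control replicate 3.

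Atm, the kinase that the sensor complex activates, had the lowest fold change of the 10. It (ENSMUSG00000034218) lies on chromosome 9 from 53439149 to 53536740 (minus strand), and its combined exons span 10338 bases. Atm stood at 34.0, 25.0 and 25.1 CPM in control and at 25.2, 21.7 and 20.5 CPM in NMDA libraries. The highest NMDA library, replicate 1, was just above the lowest control, so the groups overlapped, while within each pair NMDA was lower, with log2 differences of -0.43, -0.20 and -0.29. Without the block the log2 fold change was -0.32 ± 0.15 (adjusted p = 0.37), and within pairs Atm fell (-0.31 ± 0.09, adjusted p = 0.026), to 0.807 of control with a 95% interval of 0.708 to 0.919. The call was lost in DESeq2 with the same block (-0.30 ± 0.13) and with offsets for GC content and exon length (-0.21 ± 0.09, adjusted p = 0.12). It was also lost without the 2 libraries of any 1 replicate number. The paired values there were -0.24 ± 0.10, -0.36 ± 0.13 and -0.305 ± 0.12 without numbers 1, 2 and 3. Control replicate 1 had the highest Atm level of the 6 libraries, and without it the unblocked log2 value was -0.16. Over 18 alternatives the adjusted p of Atm ranged from 0.026 to 0.85. The oligodendrocyte lineage sum and the mitochondrial share were also highest in replicate 1 of each group, and their part in the Atm values was not tested.

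The Atm promoter is shown because its neighbour Npat starts 307 bases away on the other strand, so both genes are read outwards from a shared stretch. Npat encodes a coactivator of histone genes. The first 125 bases of the window are also the first 125 bases of the Npat window on the other strand. Capitals mark a GC box match at base 55, a CCAAT match at base 86 and an NRF1 match at base 200, counted from 1 at the 5′ end.
Atm (chr9:53536622-53536921, minus strand): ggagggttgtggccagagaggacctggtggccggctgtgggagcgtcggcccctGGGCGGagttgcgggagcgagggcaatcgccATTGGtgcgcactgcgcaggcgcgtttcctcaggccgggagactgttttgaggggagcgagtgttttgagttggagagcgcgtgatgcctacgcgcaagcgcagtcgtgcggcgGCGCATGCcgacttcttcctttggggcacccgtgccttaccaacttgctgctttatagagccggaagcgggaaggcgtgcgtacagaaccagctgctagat
The window has 64.0% GC and 28 CpG. Npat stood at 39.0, 48.2 and 43.4 CPM in control and at 41.4, 39.0 and 35.9 CPM in NMDA libraries. It was higher in pair 1 and lower in pairs 2 and 3, with log2 differences of 0.09, -0.31 and -0.27, and did not pass in either fit (-0.17 ± 0.11, adjusted p = 0.52; within pairs adjusted p = 0.21). In pair 1, where Atm differed most, Npat was higher.

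Head-to-head neighbours were listed for every member, within 1000 bases of its start. Of the 10 members 4 have one, and none of the 4 neighbours passed in either fit. Mcm4, a subunit of the replicative helicase, starts 466 bases from Prkdc and stood at 24.0 ± 2.37 CPM (control) and 28.4 ± 5.46 CPM (NMDA). Its log2 fold change of 0.25 ± 0.15 (adjusted p = 0.49) had the other sign than that of Prkdc. Abhd13 starts 21 bases from Lig4 and stood at 77.2 ± 3.60 CPM (control) and 67.4 ± 2.10 CPM (NMDA), with all 3 NMDA libraries below the controls (-0.20 ± 0.08, adjusted p = 0.33). Tmem167 starts 485 bases from Xrcc4, shares 112 exonic bases with it on the other strand, and was at -0.16 ± 0.08 (adjusted p = 0.44), also with groups apart.

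Trp53bp1, the chromatin mediator that favours end joining, had more reads than any other member, 2329 to 3144 per library. It (ENSMUSG00000043909) lies on chromosome 2 from 121193281 to 121271407 (minus strand). It stood at 170, 152 and 162 CPM in control and at 156, 137 and 126 CPM in NMDA libraries. The groups overlapped through NMDA replicate 1, while within each pair NMDA was lower, with log2 differences of -0.12, -0.15 and -0.36. The log2 fold change was -0.21 ± 0.10 (adjusted p = 0.39), and within pairs -0.21 ± 0.08 (adjusted p = 0.064). Leaving out libraries moved it. Without both libraries of replicate 1 the paired fit called it (-0.25, adjusted p = 0.020), and without both of replicate 3 that fit gave -0.12 (adjusted p = 0.47). The unblocked value was -0.12 without NMDA replicate 3 and -0.29 without NMDA replicate 1, and no fit with 1 library left out called it. Its exons share 2130 bases with Tubgcp4 on the opposite strand, which was at 15.4 ± 1.63 CPM (control) and 13.8 ± 2.09 CPM (NMDA), with 220 to 310 reads per library and a log2 fold change of -0.16 ± 0.15 (adjusted p = 0.66).

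Its promoter window is set beside that of Atm since both genes were lower in all 3 pairs. In all, 4 of the 10 members were (Atm, Trp53bp1, Prkdc and Xrcc6), beside 25.7% of all tested genes. The Xrcc6 window given above has GC box and CCAAT matches, as the Atm window has, and no window was held for Prkdc.
Trp53bp1 (chr2:121271358-121271657, minus strand): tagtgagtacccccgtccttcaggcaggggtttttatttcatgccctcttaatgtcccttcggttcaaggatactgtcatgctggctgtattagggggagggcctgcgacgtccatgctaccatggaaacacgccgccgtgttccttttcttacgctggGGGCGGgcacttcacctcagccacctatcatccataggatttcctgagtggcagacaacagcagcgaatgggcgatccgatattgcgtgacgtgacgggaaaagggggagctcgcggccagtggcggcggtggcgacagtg
The window has 57.3% GC and 20 CpG, with 1 GC box match at base 160 in capitals and neither of the other matches found in the Atm window. The RefSeq table held a window for 7 of the 10 members. None of the 7 members' windows has TGACGTCA, the full cyclic AMP response element, which is in 1.79% of all promoters, or TGANTCA, an AP-1 site, which is in 7.81%. These letters are only absent from windows of this length.

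**Figure D3:**
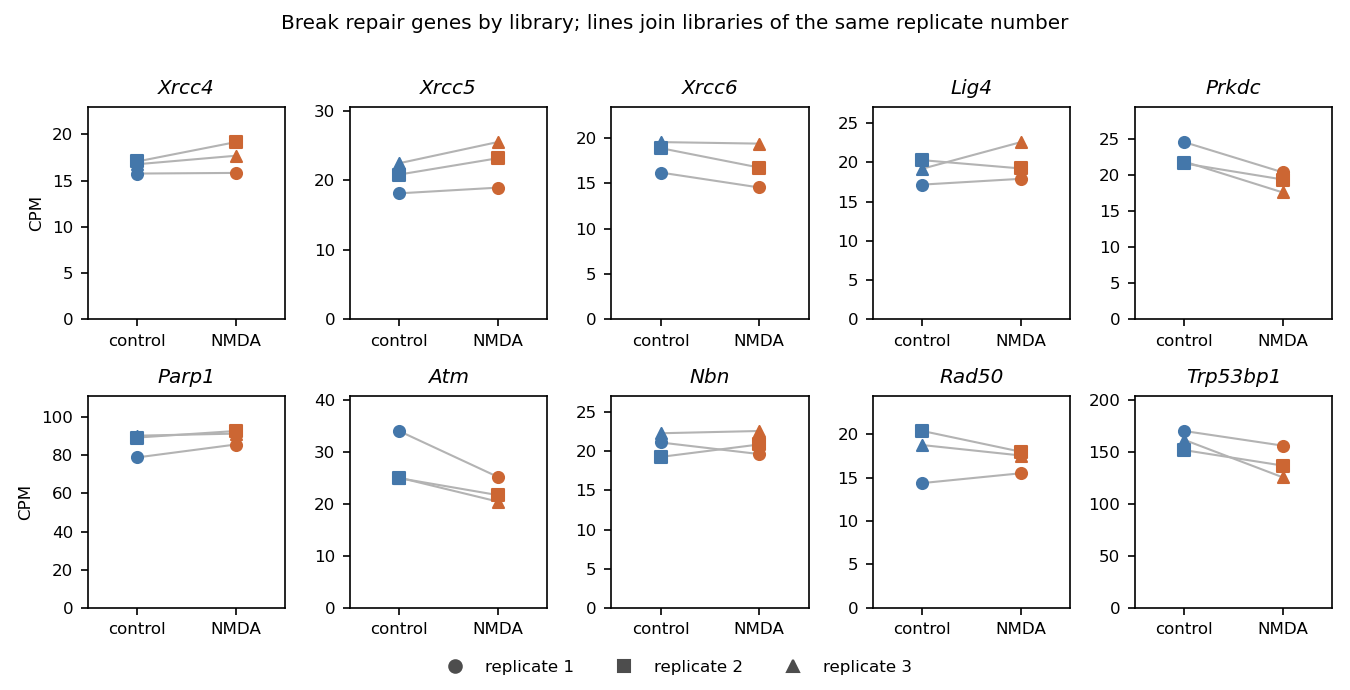
Level of each member (CPM, vertical axis from 0) in the 3 control and 3 NMDA libraries; symbols give the replicate number and lines join libraries of the same number. Atm, Prkdc, Trp53bp1 and Xrcc6 are lower with NMDA in each pair, Xrcc4, Xrcc5 and Parp1 higher in each pair (3 of 10, beside 22.5% of all tested genes), and the groups are apart only for Prkdc.

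Several members deviated in the same direction in both libraries of a number. In replicate 1, Atm lay above its group mean in both groups, by 0.29 in control and 0.17 in NMDA libraries on the log2 scale, and Prkdc by 0.12 and 0.09. Xrcc5 lay below its group mean there, by -0.17 and -0.24, and Xrcc6 by -0.16 and -0.20. The Prkdc to Xrcc5 ratio was highest in replicate 1 of each group.

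The 3 members whose paired interval lay below 0 are also the 3 with the most exonic sequence, a grouping made after their values were seen. Combined exons span 13187 bases in Prkdc, 10338 in Atm and 14164 in Trp53bp1, against 2533 to 5375 in the other 7. Log2 fold changes were -0.32 to -0.21 in the 3 and -0.11 to 0.14 in the 7. Across the 10 genes, which are not independent replicates and share the same 6 libraries, Pearson's r of the fold change with log2 exon length was -0.82 and Spearman's rho -0.73. Over 14490 tested genes with a length, rho was -0.18. The 2642 genes with over 8000 exonic bases had a median of -0.07, and within pairs 15.6% of them passed as lower and 3.18% as higher. Among the 1538 genes of 1000 to 2000 bases the median was 0.06, and 3.12% passed as lower and 6.76% as higher. With offsets for GC content and exon length the paired values of Prkdc, Atm and Trp53bp1 moved to -0.14, -0.21 and -0.12. None of the 3 passed there, but without the offsets only Atm had passed within pairs. The offsets took GC content and length together, so their parts cannot be told apart here. The part of length in the members' changes was not tested.

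**Figure D4:**
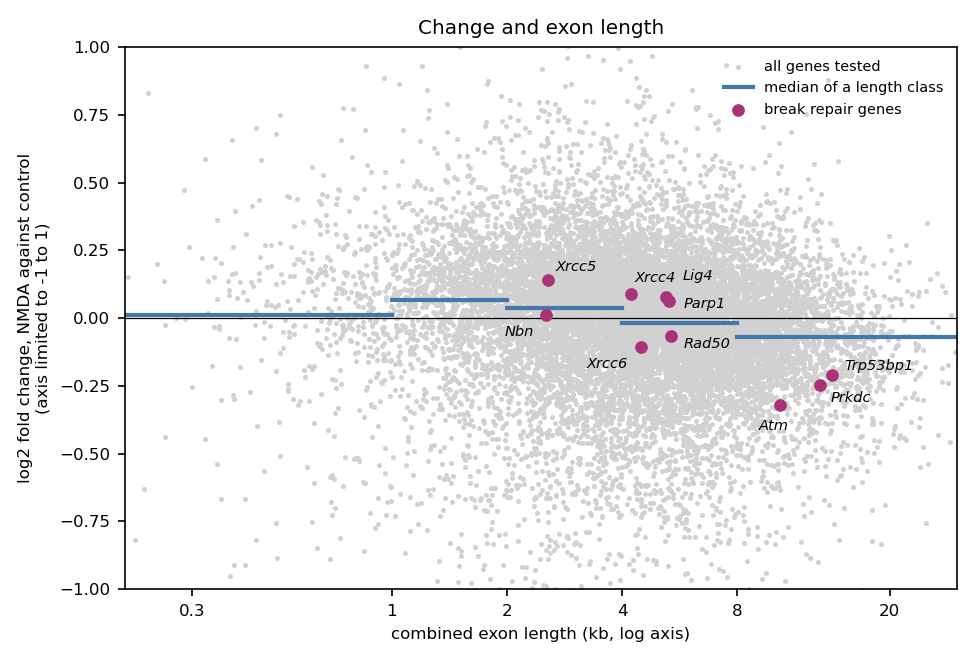
Log2 fold change (NMDA against control, axis limited to -1 to 1) against combined exon length in kb (log axis); grey points are the tested genes within these limits, blue bars the median of each length class, purple points the 10 members. Prkdc, Atm and Trp53bp1 sit beyond 8 kb at -0.32 to -0.21, and the class median there is -0.07.

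Levels between genes were compared per kb of combined exon, as CPM per kb. Parp1 was highest, at 16.3 ± 1.19 in control libraries (SD, n = 3), followed by Trp53bp1 at 11.4 ± 0.650, Nbn at 8.26 ± 0.602 and Xrcc5 at 8.00 ± 0.855. Then came Xrcc6 at 4.07 ± 0.399, Xrcc4 at 3.93 ± 0.162, Lig4 at 3.63 ± 0.304 and Rad50 at 3.31 ± 0.577. Atm, at 2.71 ± 0.503, and Prkdc, at 1.72 ± 0.125, were lowest. Ranges over the 6 libraries did not overlap between Parp1 and Trp53bp1, between Xrcc5 and Xrcc6, or between Atm and Prkdc. Trp53bp1 and Nbn were also apart within the control libraries (10.73 to 12.02 against 7.62 to 8.81 CPM per kb), though not over all 6. The other neighbours in this order overlapped within the control libraries too. In NMDA libraries the means kept this order except that Xrcc5 stood above Nbn, and Xrcc4 and Lig4 above Xrcc6. Parp1 was at the 80.7th percentile of all tested genes and Prkdc at the 26.8th. With the longest annotated transcript as the length, all 10 kept their place, and Xrcc6 stood at 5.53 ± 0.542 per kb beside 8.00 ± 0.855 for Xrcc5.

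The wider repair machinery was read from 4 further lists with 60 genes, of which 57 were tested. Shld3 was not matched, and Rad51b and Fen1 did not pass the filter on low counts. Without the block 0 of the 57 passed in edgeR, and DESeq2 and limma-voom also called 0. At an unadjusted p under 0.05 in edgeR without the block, 2 of the 57 were lower and 0 higher. Of all 14642 tested genes, 1240 were lower and 760 higher at that threshold. Without NMDA replicate 1, edgeR called 1, Dclre1c. Within pairs 2 were lower and 0 higher, beside the 8.35% of all tested genes that were lower. Without the libraries numbered 1 the paired fit called 1 lower, Dclre1c, and 2 higher, H2ax and Rpa1. The median log2 fold change of the 57 was -0.09, beside -0.01 over all tested genes.

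Among other end-joining factors (10 tested, median -0.10) Dclre1c, the nuclease Artemis that Prkdc activates, fell within pairs. It stood at 14.8, 13.6 and 13.03 CPM in control and at 12.2, 8.15 and 7.41 CPM in NMDA libraries, with the groups apart (within pairs -0.60 ± 0.13, adjusted p = 0.0030). Without the block its value was -0.58 ± 0.19 (adjusted p = 0.24). It was also called in DESeq2 with the block, with GC and length offsets, and without the libraries of any 1 number, while Usp28 was called in none of these. Among sensing and signalling factors (17 tested, median -0.07) Usp28, a deubiquitinase bound by Trp53bp1, fell within pairs from 35.4 ± 1.44 to 29.9 ± 1.78 CPM (-0.25 ± 0.08, adjusted p = 0.049), without passing in the unblocked fit (adjusted p = 0.31). Atr, the kinase that responds to single-stranded DNA, was at 27.6 ± 5.16 CPM (control) and 22.5 ± 1.31 CPM (NMDA) and did not pass within pairs (-0.29 ± 0.10, adjusted p = 0.0502).

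Homologous recombination, which dividing cells use with a sister chromatid as template, had 21 of 22 genes tested and 0 past the threshold in either fit (median -0.10; at an unadjusted p under 0.05 without the block, 0). Its lowest p belonged to the helicase Wrn, at 13.1 ± 0.775 CPM (control) and 10.9 ± 1.26 CPM (NMDA) with a log2 fold change of -0.25 ± 0.14 (adjusted p = 0.44), and to the nuclease Dna2 (-0.44 ± 0.26, adjusted p = 0.49). The summed level of the list was 222 to 255 CPM (control) and 217 to 254 CPM (NMDA). Alternative end joining and single-strand break repair had 9 of 10 genes tested and 0 past the threshold in either fit (median -0.09; at an unadjusted p under 0.05 without the block, 0). The background at that unadjusted threshold was 760 higher and 1240 lower of all 14642 tested genes. Parp2 was at -0.22 ± 0.12 (adjusted p = 0.44) and Parp3 at 0.29 ± 0.24 (adjusted p = 0.63). Of the members and these lists together, 16 genes had over 8000 exonic bases. Of these 16, 13 were below 0, while 65.9% of all tested genes of that length were. The 13 include Atm, Prkdc and Trp53bp1, which were grouped by length after their values were seen. The count is therefore no test of that grouping.

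Genes whose level followed that of Atm most closely over the 6 libraries were D430019H16Rik, Ndor1, Pitpnm1, Ipo9 and Ago2, among 8339 genes whose mean log2 CPM was 4 or more. Their Pearson's r was 0.993 to 0.997 over 6 libraries that share their depth and composition, and 568 of the 8339 genes (6.81%) had an r over 0.9. These libraries include the treatment difference, so a likeness to Atm in the NMDA comparison was fixed by the choice of these genes.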

How the data were processed

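RNA of 6 libraries (3 control, 3 NMDA) was read from one end of stranded poly(A) libraries, per the labels' protocols. The deposited table holds raw counts per gene made by the authors. The builds mm10 and GRCm38.p6 and the tools Trimmomatic, TopHat and HTSeq stand in the submitters' processing notes. Tool versions, strand setting and annotation release were not given in the sources used here. Rows with a gene identifier but no symbol held 0.219% to 0.246% of counts and were tested with the rest.

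Whole-table tests used edgeR 4.0.16 in R 4.3.3: a filter (minimum count 10, total 15), TMM scaling, robust quasi-likelihood F tests on group alone, and Benjamini-Hochberg adjustment over all 14642 genes at a threshold of 0.05. Intervals are 95% from the fit. CPM was computed from the deposited counts. Same-number libraries deviated together (correlations 0.54, 0.38 and 0.49, each over 0.1), so the replicate number was also fitted as a block. That pairing rests on the data, as no label explains the numbers. The block lowered the biological coefficient of variation from 13.04% to 7.06%. Within groups, chi-square per degree of freedom between libraries was 8.27 to 58.7, beyond counting noise, and each library was counted separately. Ratios within libraries had two-sided exact permutation tests over all 6 libraries, without use of the pairs.

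Positions and exon lengths came from GENCODE M21 (GRCm38) and promoters from RefSeq (GRCm38.p6). Alternatives used DESeq2 1.42.0, limma 3.58.1 (voom) and mgcv 1.9.3 (GC and length offsets). Scripts were tested on simulated counts. Figures were drawn with matplotlib 3.10.9. The members and lists were chosen with earlier results of these data known. Named beside the members were repair genes past the threshold in either fit, the 2 lowest p of each list, start-site neighbours and the 5 genes most like Atm. One gene that this rule names is not reported here.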

Additional observations from a re-analysis of the deposited data

How the results depend on the processing

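No member was called in edgeR with either other scaling (DESeq2 size factors, upper quartile), the DESeq2 Wald test, limma-voom, either other filter, or any 1 library left out. With the replicate block 1 was called (Atm), with the block and without the libraries numbered 1 another 1 (Trp53bp1), and 0 in the other 4 blocked fits (DESeq2, GC and length offsets, without the libraries numbered 2 or 3). Over 18 alternatives each, 173 of 180 member values kept their sign. Those that did not were Lig4 without NMDA replicate 3 (-0.0086; 0.16 at the highest of the 6 values with 1 library left out), Nbn (-0.044 to 0.067 with 1 library left out; -0.041 with the block and without the libraries numbered 2) and Rad50 (-0.20 to 0.041, and 0.0024 in that blocked fit). Of 35 ratio values 32 kept their sign. For each of the 5 ratios 1 of these values, the mean difference within pairs, equals the main value by construction and could not change sign. With 1 library left out the log2 difference of Xrcc4 to Lig4 ran from -0.076 to 0.10. That of Nbn to Rad50 ran from -0.10 to 0.22, and that of Xrcc6 to Xrcc5 from -0.27 to -0.22. The cause of these moves was not tested. Called genes over the whole table numbered 63, against 306 in the DESeq2 Wald test, 260 with no filter, 2051 with the replicate block (828 higher, 1223 lower), 963 with the block in DESeq2 and 2112 with offsets for GC and length added to the block (1146 higher, 966 lower). With the block they numbered 2707, 1018 and 1463 without the libraries numbered 1, 2 and 3, and without the block 20 (control replicate 2 left out) to 146 (NMDA replicate 1 left out). Most members had 217 to 628 reads per library, which limits them more than Parp1 and Trp53bp1.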
